A study of Arabidopsis thaliana with 21 samples.

Results

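COR15A, COR15B, COR47, LTI30 and HIS1-3 are 5 Arabidopsis thaliana genes known for their induction by cold, drought or abscisic acid (ABA), and they were followed here across 7 genotypes that differ in ABA and gibberellin (GA) synthesis. Each gene was found by its locus (AT2G42540, AT2G42530, AT1G20440, AT3G50970 and AT2G18050 in that order) and had 1 probe set, so the group holds 5 of the 22746 probe sets left after the array's own controls were set aside. RNA came from the aerial parts (labelled rosette) of plants grown in soil at 22 °C with 16 h of light a day for 21 days, and 3 arrays were made for each genotype, 21 in all. Col-0 served as wild type, aba2 and ga20ox1 as single mutants and aba2/ga20ox1 as their double mutant. ABA2-OE and GA20OX1-OE overexpress the named gene by their labels, and aba2/GA20OX1-OE overexpresses GA20OX1 in the aba2 mutant. All carry the Col-0 background. The mutant alleles, the promoters of the overexpression lines, the number of independent lines and the number of plants per array were not stated in the labels.

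In leaves ABA is bound by PYR/PYL receptors, which then hold back PP2C phosphatases and so free SnRK2 kinases to activate ABF transcription factors. ABF factors bind ABA responsive elements in promoters, while cold acts on many of the same genes through the CBF factors and their C-repeat elements. ABA2 is a dehydrogenase of ABA synthesis and acts on xanthoxin, and GA20OX1 is an oxidase in the synthesis of active GA. COR15A and COR15B encode small proteins of the chloroplast stroma that protect membranes when freezing draws water from the cell, and their loci are neighbours in the RefSeq gene table. COR47 and LTI30 encode dehydrins, hydrophilic proteins that accumulate in drying or cold cells. HIS1-3 encodes a stress-inducible variant of linker histone H1.

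All levels below are log2 MAS5 signals, and a difference of 1 is a doubling on this scale. Differences were tested two-sided with limma over 15922 probe sets, and a call means that the p-value after Benjamini-Hochberg adjustment was under 0.05. Where nothing else is said, adjusted p-values come from that fit and n is 3 arrays a genotype. No label says whether the 3 arrays came from separate plants or harvests, so the p-values measure the spread between these arrays, which may be technical. Median signals per array ran from 130 to 188 and correlations between arrays of a genotype from 0.942 to 0.953. The ABA2-OE arrays had the lowest 3 medians, 130 to 135, and aba2/GA20OX1-OE replicate 3 had the highest. Of the leaf markers 1 of 6 was named by the probe annotation, RCA, the activase of Rubisco, and its genotype means lay between 14.58 and 14.99. The probe annotation names neither ABA2 nor GA20OX1, so the engineered transcripts were not analysed here. Loss, lack or overexpression of either gene is therefore taken from the genotype labels below, and how complete it was is not known. In whole aerial tissue, fewer cells of a type and less RNA per cell cannot be told apart.

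The 5 genes shared 1 order of genotypes at its ends. For 5 of 5 the lowest 3 genotype means were those of aba2, aba2/ga20ox1 and aba2/GA20OX1-OE, and for 5 of 5 the highest mean was that of ABA2-OE. The share of all tested probe sets with this order was not counted. In ABA2-OE against Col-0 limma called 0 of 5, so the upper end of the order rests on no called difference from Col-0. Averaged over the 3 GA backgrounds, the genotypes with aba2 differed from Col-0, ga20ox1 and GA20OX1-OE by -3.15 (SE 0.19) for COR15A and by -1.91 (SE 0.28) for HIS1-3. The same average was -1.26 (SE 0.11) for COR47, -0.91 (SE 0.12) for COR15B and -0.70 (SE 0.12) for LTI30. All 5 fell in limma, with adjusted p from 1.1e-10 for COR15A to 0.00015 for LTI30, where 7.19% of the tested probe sets were called lower. The median difference was -1.26 over the 5 genes and 0.00 over all tested probe sets. For COR15A, COR47 and HIS1-3 the 9 arrays with aba2 lay wholly below the 12 others, a separation found in this direction for 0.911% of tested probe sets. The members were chosen with earlier results of these data known. This order, this average and this separation therefore describe the group and are no independent support for it, and the same holds for the comparisons below. Of 4 listed root markers, 2 were tested, PYK10, a beta-glucosidase gene, and the expansin gene EXPA18, and they did not move together. PYK10 was lower in this average (-0.81, SE 0.15, adjusted p = 0.00035), whereas EXPA18 differed by 0.42 (SE 0.35, adjusted p = 0.48). In aba2 against Col-0 they differed by -0.12 (adjusted p = 0.89) and 1.75 (adjusted p = 0.11), the latter from a Col-0 mean of 4.16, under the signal needed for a test. The part of root markers in the result was not tested.

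**Figure D1:**
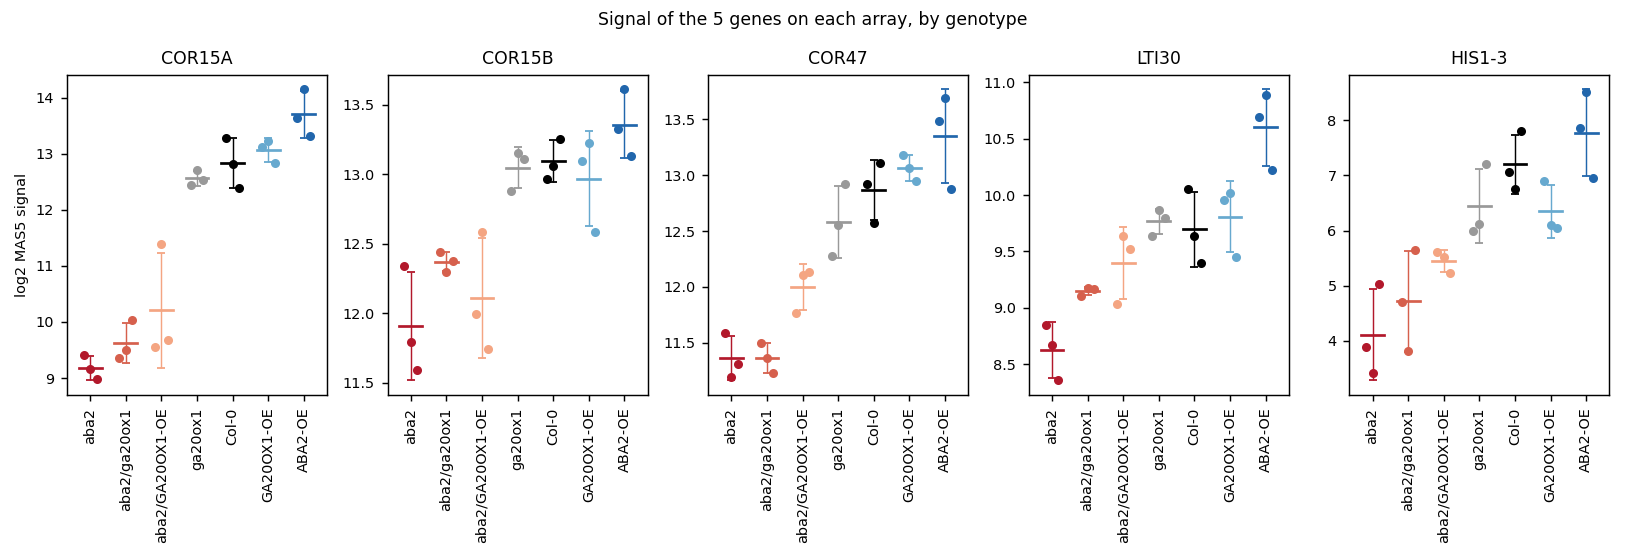
Log2 MAS5 signal of each gene (1 panel each, with its own vertical range) on the 21 arrays. Points are arrays, horizontal bars genotype means and vertical bars 1 SD (n = 3). In every panel the means of the 3 genotypes with aba2 are the lowest and the mean of ABA2-OE is the highest.

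COR15A had the widest span of genotype means among the 5. Its Col-0 arrays read 13.29, 12.82 and 12.39, and its aba2 arrays 9.41, 9.15 and 8.97. In aba2/ga20ox1 they read 9.35, 9.51 and 10.03, and in aba2/GA20OX1-OE 9.55, 11.39 and 9.68. The last genotype was thus uneven, with replicate 2 well above the other arrays that carry aba2 and still below every array with intact ABA2. The ga20ox1 arrays read 12.44, 12.70 and 12.53, the GA20OX1-OE arrays 13.13, 13.23 and 12.83, and the ABA2-OE arrays 13.63, 14.15 and 13.31. The ABA2-OE arrays lay above all 18 others, by a narrow margin over Col-0 replicate 1. The share of all tested probe sets separated in this way was not counted, and the difference from Col-0 was not called in limma (adjusted p = 0.19). In the order of means (aba2, aba2/ga20ox1, aba2/GA20OX1-OE, ga20ox1, Col-0, GA20OX1-OE, ABA2-OE), the step of 2.35 between aba2/GA20OX1-OE and ga20ox1 exceeded the larger SD of both, 1.03. The step of 0.45 from aba2 to aba2/ga20ox1 also exceeded its larger SD of 0.36, although their arrays overlapped. That of 0.63 from GA20OX1-OE to ABA2-OE exceeded 0.42, while aba2/ga20ox1 and aba2/GA20OX1-OE, ga20ox1 and Col-0, and Col-0 and GA20OX1-OE did not differ beyond their spread.

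COR15B, the neighbour of COR15A, moved over a narrower range. Its Col-0 arrays read 12.97, 13.06 and 13.26 and its aba2 arrays 12.34, 11.79 and 11.59. The aba2/ga20ox1 arrays read 12.44, 12.30 and 12.38, and the aba2/GA20OX1-OE arrays 11.99, 12.59 and 11.75. Arrays with and without aba2 overlapped narrowly, because the highest of the 9 (12.59) passed the lowest of the 12 others, GA20OX1-OE replicate 3 at 12.58. The other arrays of GA20OX1-OE read 13.10 and 13.23, those of ga20ox1 12.88, 13.15 and 13.11, and those of ABA2-OE 13.33, 13.61 and 13.13. Among the neighbours in the order of means, only the steps from aba2/ga20ox1 to GA20OX1-OE (0.60, larger SD 0.34) and from Col-0 to ABA2-OE (0.26, larger SD 0.24) exceeded the spread.

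Within an array, the log2 ratio of the COR15A signal to the COR15B signal lay between -3.09 and -1.19 on the 9 arrays with aba2, with a median of -2.61. On the 12 others it lay between -0.86 and 0.54, with a median of 0.02. The ranges did not overlap, so both probe sets changed unequally. The ratio on aba2/GA20OX1-OE replicate 2 was the highest of the 9. Probe sequences were not used here, so cross-hybridisation between both genes was not tested.

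Of the dehydrin genes, COR47 read 12.92, 12.57 and 13.11 in Col-0 and 11.59, 11.20 and 11.31 in aba2. In aba2/ga20ox1 it read 11.50, 11.36 and 11.23, and in aba2/GA20OX1-OE 11.77, 12.10 and 12.13. The aba2 and aba2/ga20ox1 arrays thus intermingled, with equal means of 11.37, and every aba2/GA20OX1-OE array lay above them. For this separation too, no share of all tested probe sets was counted. The arrays of ga20ox1 read 12.28, 12.55 and 12.92, those of GA20OX1-OE 13.19, 13.06 and 12.95, and those of ABA2-OE 13.48, 13.69 and 12.88. Replicate 3 of ABA2-OE fell within the range of Col-0. In the order of means only the steps from aba2 to aba2/GA20OX1-OE (0.64, larger SD 0.20) and from there to ga20ox1 (0.58, larger SD 0.32) exceeded the spread.

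LTI30, the other dehydrin gene, read 10.06, 9.64 and 9.39 in Col-0 and 8.85, 8.67 and 8.36 in aba2. It read 9.11, 9.17 and 9.16 in aba2/ga20ox1 and 9.03, 9.64 and 9.52 in aba2/GA20OX1-OE. The aba2 arrays were the lowest of all 21, whereas aba2/GA20OX1-OE overlapped with Col-0. The arrays of ga20ox1 read 9.64, 9.86 and 9.79, those of GA20OX1-OE 9.95, 10.02 and 9.45, and those of ABA2-OE 10.69, 10.89 and 10.23. The ABA2-OE arrays lay above all 18 others, and their difference from Col-0 was not called in limma (adjusted p = 0.063). Neither for this nor for the low aba2 arrays was the share of all tested probe sets counted. In its order of means the steps from aba2 to aba2/ga20ox1 (0.52, larger SD 0.25) and from GA20OX1-OE to ABA2-OE (0.79, larger SD 0.34) exceeded the spread, and those between the genotypes in the middle did not.

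HIS1-3, the linker histone gene, gave signals down to the range where probe sets were left out. Its Col-0 arrays read 7.06, 6.76 and 7.80 and its aba2 arrays 3.89, 3.41 and 5.02. Its aba2/ga20ox1 arrays read 4.69, 3.81 and 5.65, and its aba2/GA20OX1-OE arrays 5.61, 5.53 and 5.22. The means of aba2 (4.11) and aba2/ga20ox1 (4.72) lay under 5.257, the mean log2 signal a probe set needed over all arrays to be tested. No fold is given where a group lay under this bound, since it would depend on how low signals are treated. The ga20ox1 arrays read 5.995, 6.13 and 7.22, the GA20OX1-OE arrays 6.91, 6.10 and 6.05, and the ABA2-OE arrays 7.86, 8.52 and 6.95. Col-0 overlapped with each of these. The steps from aba2/GA20OX1-OE to GA20OX1-OE (0.90, larger SD 0.48) and from ga20ox1 to Col-0 (0.76, larger SD 0.67) exceeded the spread.

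Loss of ABA2 in otherwise wild-type plants was the first question. In aba2 against Col-0 all 5 genes fell, against 2.51% of tested probe sets called lower, and their median of -1.50 compared with 0.05 over all tested. COR15A fell 12.6-fold (-3.66, SE 0.33, adjusted p = 3.9e-07) and was the second lowest difference of the 15922. COR47 fell 2.84-fold (-1.50, SE 0.19), COR15B 2.28-fold (-1.19, SE 0.20) and LTI30 2.1-fold (-1.07, SE 0.20, adjusted p = 0.0019). HIS1-3 fell by 3.10 (SE 0.49, adjusted p = 0.00032) on the log2 scale, and the difference was -2.13 with a pseudocount of 20.1 added to every signal. The members were chosen with this contrast known, so these falls describe the group and are no independent support for it.

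With ABA2 overexpressed, the levels of all 5 genes had higher means than in Col-0, but none passed the test over all probe sets. LTI30 differed by 0.90 (SE 0.20, 95% interval 0.48 to 1.32, adjusted p = 0.063) and COR15A by 0.87 (SE 0.33, 0.18 to 1.56, adjusted p = 0.19). COR47 differed by 0.48 (0.09 to 0.87), HIS1-3 by 0.57 (-0.44 to 1.59) and COR15B by 0.26 (-0.16 to 0.69). Without each array these ran from 0.31 to 0.72 for COR47, from 0.20 to 0.99 for HIS1-3 and from 0.13 to 0.38 for COR15B. Limma called 0 of 5, against 0.226% of tested probe sets called in either direction. An unadjusted p under 0.05 was found for 3 of 5, and for 2738 of all 15922 tested. The median of the 5 was 0.57, beside -0.03 over all tested. LTI30 was called without Col-0 replicate 1 (1.08, adjusted p = 0.05) and without ABA2-OE replicate 3 (1.09, adjusted p = 0.048), and also with the replicate block (adjusted p = 0.027). Within ABA2-OE, replicate 2 was highest and replicate 3 lowest for 5 of 5 genes, and the share of all probe sets with that order was not counted.

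Between both ends of the ABA2 range, ABA2-OE against aba2, all 5 genes rose, where 5.27% of tested probe sets were called higher. Their median was 1.98, and that of all tested -0.09. COR15A stood 23.0-fold higher (4.52, SE 0.33, adjusted p = 9.8e-09), COR47 3.96-fold (1.98, SE 0.19), LTI30 3.93-fold (1.98, SE 0.20) and COR15B 2.73-fold (1.45, SE 0.20). HIS1-3 rose by 3.67 (SE 0.49, adjusted p = 3.7e-05) on the log2 scale, or by 2.65 with the pseudocount. The aba2 arrays enter this comparison and that with Col-0 alike, so both are not independent. After quantile normalization, which removes the lower medians of the ABA2-OE arrays, the 5 rises were called at 1.35 to 4.47.

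**Figure D2:**
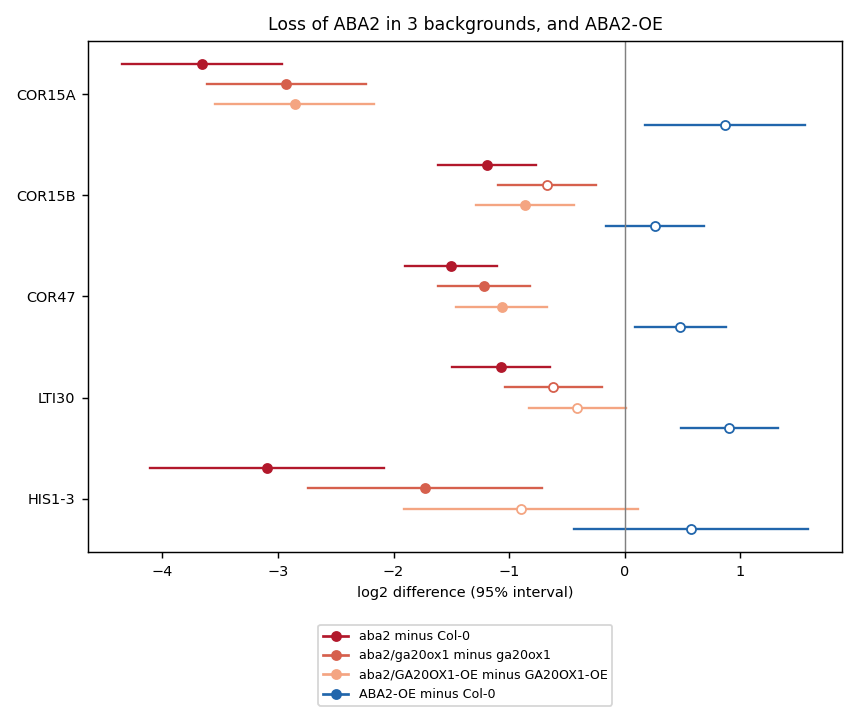
Log2 difference of each gene between genotypes with and without ABA2 in 3 GA backgrounds, and between ABA2-OE and Col-0. Points are limma estimates, lines 95% intervals, and filled points were called at an adjusted p under 0.05. Of the 3 estimates for loss of ABA2, that under GA20OX1-OE lies nearest to 0 for COR15A, COR47, LTI30 and HIS1-3, and that in ga20ox1 for COR15B. Open among them are LTI30 (-0.41) and HIS1-3 (-0.90) under GA20OX1-OE and LTI30 (-0.62) and COR15B (-0.68) in ga20ox1.

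The same loss was then examined in plants whose GA20OX1 was mutated or overexpressed. COR15A and COR47 fell in both backgrounds. In aba2/ga20ox1 against ga20ox1 COR15A fell 7.61-fold (-2.93, SE 0.33, adjusted p = 8.7e-06) and COR47 2.33-fold (-1.22, SE 0.19, adjusted p = 0.00042). In aba2/GA20OX1-OE against GA20OX1-OE COR15A fell 7.24-fold (-2.86, SE 0.33, adjusted p = 1.3e-05) and COR47 2.09-fold (-1.06, SE 0.19, adjusted p = 0.0014). Without aba2/GA20OX1-OE replicate 2 the latter difference of COR15A was -3.45.

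In the fit of all 21 arrays, the other 3 genes passed in 1 of these backgrounds or in neither, and their calls depended on the setting. HIS1-3 fell in the ga20ox1 background (-1.73, SE 0.49, adjusted p = 0.039), and that call ended with the pseudocount (-1.18, adjusted p = 0.051), without the low-signal filter (0.064), without the trend (0.054) and with only the groups compared (0.083). It also ended without aba2/ga20ox1 replicate 1 (-1.72, adjusted p = 0.11) or 2 (-1.27, 0.16) and without ga20ox1 replicate 2 (-1.89, 0.075) or 3 (-1.34, 0.20). Under GA20OX1-OE it differed by -0.90 (95% interval -1.91 to 0.11, adjusted p = 0.41). COR15B fell under GA20OX1-OE (-0.86, SE 0.20, adjusted p = 0.014), a call lost without GA20OX1-OE replicate 1 (-0.80, adjusted p = 0.065) or 2 (-0.73, 0.099) and without aba2/GA20OX1-OE replicate 1 (-0.80, 0.062) or 3 (-0.68, 0.095). With only the groups compared its adjusted p was 0.089. In the ga20ox1 background it differed by -0.68 (adjusted p = 0.056), or by -0.76 (0.049) without ga20ox1 replicate 1. There it was also called after quantile normalization (-0.70, adjusted p = 0.036), with array weights (-0.77, 0.0011), with the replicate block (0.027) and with only the groups compared (0.02). LTI30 differed by -0.62 (95% interval -1.04 to -0.20, adjusted p = 0.083) in the ga20ox1 background and by -0.41 (-0.83 to 0.01, adjusted p = 0.34) under GA20OX1-OE. In the ga20ox1 background LTI30 was called with array weights (-0.70, adjusted p = 0.0037), with the replicate block (0.042) and with only the groups compared (0.042). Under GA20OX1-OE it was called with array weights (-0.62, adjusted p = 0.028).

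By count, 3 of 5 genes fell in the ga20ox1 background, where 2.56% of tested probe sets were called lower, and 3 of 5 under GA20OX1-OE, where 1.8% were. The medians of the 5 differences were -1.22 and -0.90, beside -0.04 and 0.00 over all tested probe sets. Of the root markers, PYK10 was lower under GA20OX1-OE (-1.62, SE 0.25, adjusted p = 0.00035) and EXPA18 differed by 0.10 (SE 0.60, adjusted p = 0.96), and their part in these falls was not tested.

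Whether the effect of aba2 differed between GA backgrounds was asked with interaction terms. All 10 estimates were positive, which means a smaller fall than in the Col-0 background, but limma called 0 of 5 for ga20ox1 and 0 of 5 for GA20OX1-OE. The largest estimate was that of HIS1-3 with GA20OX1-OE, 2.20 (95% interval 0.76 to 3.63, adjusted p = 0.58), followed by HIS1-3 with ga20ox1, 1.37 (-0.06 to 2.80, adjusted p = 0.69). Both rest on the aba2 mean of HIS1-3, which lies under the signal bound, and they were 1.46 and 0.96 with the pseudocount. The second ran from 0.90 to 1.82 without each array. For LTI30 with GA20OX1-OE it was 0.66 (0.07 to 1.25, adjusted p = 0.87). COR15A stood at 0.73 (-0.25 to 1.70) and 0.80 (-0.18 to 1.77), and the latter was 0.21 without aba2/GA20OX1-OE replicate 2. Both terms use the same aba2 and Col-0 arrays, so their shared sign is not independent. For ga20ox1, 0% of tested probe sets were called, with 1156 at an unadjusted p under 0.05 and 0 of the 5 genes among them. For GA20OX1-OE 0.0377% were called, with 847 at an unadjusted p under 0.05 and 2 of the 5 genes among them. The medians of the 5 estimates were 0.51 and 0.66, beside -0.08 and -0.05 over all tested.

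Against Col-0, 4 of the 5 genes fell in each of the combined genotypes. In aba2/ga20ox1 these were 4 of 5, where 3.73% of tested probe sets were called lower. COR15A differed by -3.20 (9.21-fold), HIS1-3 by -2.49, COR47 by -1.50 and COR15B by -0.72 (adjusted p = 0.032), while LTI30 was not called (-0.55, SE 0.20, adjusted p = 0.11). The call of COR15B ended without any 1 of the 6 arrays of both groups (-0.79 to -0.64, adjusted p = 0.052 to 0.13), and without the trend (adjusted p = 0.064). In aba2/GA20OX1-OE COR15A, COR15B, COR47 and HIS1-3 likewise fell, against 3.53% called lower. The median of the 5 differences was -1.50 in the first genotype and -0.99 in the second, beside -0.00 and 0.11 over all tested probe sets. COR15A differed by -2.63 (6.17-fold), HIS1-3 by -1.75 (3.37-fold, adjusted p = 0.027), COR15B by -0.99 and COR47 by -0.87, and LTI30 by -0.30 (adjusted p = 0.40). The call of HIS1-3 ended without any 1 aba2/GA20OX1-OE array (-1.83, -1.79 and -1.64 without replicates 1, 2 and 3) and without Col-0 replicate 1 (-1.83) or 3 (-1.46), with adjusted p from 0.05 to 0.10. With array weights it ended too (-1.57, adjusted p = 0.053).

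A change in GA20OX1 alone was followed by no call among the 5 genes. In ga20ox1 against Col-0 the differences ran from -0.76 for HIS1-3 (95% interval -1.77 to 0.25) to 0.07 for LTI30 (-0.35 to 0.49). Limma called 0 of 5, with 0 of 5 at an unadjusted p under 0.05, while 0.0126% of tested probe sets were called. In GA20OX1-OE against Col-0 they ran from -0.85 for HIS1-3 (-1.87 to 0.16) to 0.23 for COR15A (-0.46 to 0.92), again with 0 of 5 called, 0 of 5 at an unadjusted p under 0.05 and 0.0188% of all called. HIS1-3 thus had lower means than Col-0 in both GA lines, with overlapping arrays. Between both GA lines, GA20OX1-OE against ga20ox1, COR47 differed by 0.48 (0.09 to 0.88, adjusted p = 0.41, and 0.016 with array weights) and COR15A by 0.51 (-0.18 to 1.20). There 0 of 5 were called, 1 of 5 had an unadjusted p under 0.05, and 0.132% of tested probe sets were called. In these 3 comparisons the medians of the 5 genes were -0.27, 0.11 and 0.04, beside 0.03, 0.09 and 0.06 over all tested. Of all tested probe sets, 971, 2010 and 1571 had an unadjusted p under 0.05 in them.

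Within plants that lack ABA2, the means of the 5 genes were mostly higher when GA20OX1 was overexpressed. In aba2/GA20OX1-OE against aba2, HIS1-3 differed by 1.34 (95% interval 0.33 to 2.35, adjusted p = 0.30) from an aba2 mean under the signal bound, COR15A by 1.03 (0.34 to 1.72, adjusted p = 0.21) and LTI30 by 0.77 (0.35 to 1.19, adjusted p = 0.087). COR47 differed by 0.64 (0.24 to 1.03, adjusted p = 0.15) and COR15B by 0.20 (-0.22 to 0.63). Limma called 0 of 5, against 0.76% of tested probe sets. An unadjusted p under 0.05 was found for 4 of 5, and for 1587 of all 15922 tested. The HIS1-3 difference was 0.74 with the pseudocount and 0.99 after quantile normalization, and it was called with array weights (1.62, adjusted p = 0.039), as was COR47 (0.57, 0.041). Array by array, the aba2/GA20OX1-OE values lay wholly above those of aba2 for COR15A, COR47, LTI30 and HIS1-3, and overlapped for COR15B. How many of all tested probe sets were separated in this way was not counted, so no rise is read from it. The COR15A difference was 0.44 without aba2/GA20OX1-OE replicate 2, and LTI30 was called without replicate 1 of that genotype (0.95, adjusted p = 0.033) and with the replicate block (0.043).

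The double mutant aba2/ga20ox1 differed from aba2 by 0.61 in HIS1-3, 0.52 in LTI30 (0.10 to 0.94), 0.47 in COR15B (0.04 to 0.89), 0.45 in COR15A and -0.00 in COR47 (-0.40 to 0.39). Both HIS1-3 means lie under the signal bound, and its difference was 0.32 with the pseudocount and 0.14 to 1.06 without each array, lowest without aba2/ga20ox1 replicate 3 and highest without aba2 replicate 3. Limma called 0 of 5 and 0.00628% of all tested probe sets. An unadjusted p under 0.05 was found for 2 of 5, and for 1033 of all tested. Between aba2/GA20OX1-OE and aba2/ga20ox1 the differences were 0.73 for HIS1-3, 0.64 for COR47 (0.24 to 1.03, adjusted p = 0.062), 0.58 for COR15A, 0.25 for LTI30 and -0.26 for COR15B. Here 0 of 5 were called and 1 of 5 had an unadjusted p under 0.05, while 3.91% of tested probe sets were called and 3351 had such a p. In these 3 comparisons among plants without ABA2 the medians of the 5 were 0.77, 0.47 and 0.58, beside 0.04, -0.05 and 0.11 over all tested. The COR15A difference was -0.02 without aba2/GA20OX1-OE replicate 2. COR47 was called after quantile normalization (0.75, adjusted p = 0.042) and with only the groups compared (0.044). In this comparison PYK10 was lower (-1.31, SE 0.25, adjusted p = 0.0049; 0.056 with only the groups compared) and EXPA18 differed by 0.45 (SE 0.60, adjusted p = 0.68).

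**Figure D3:**
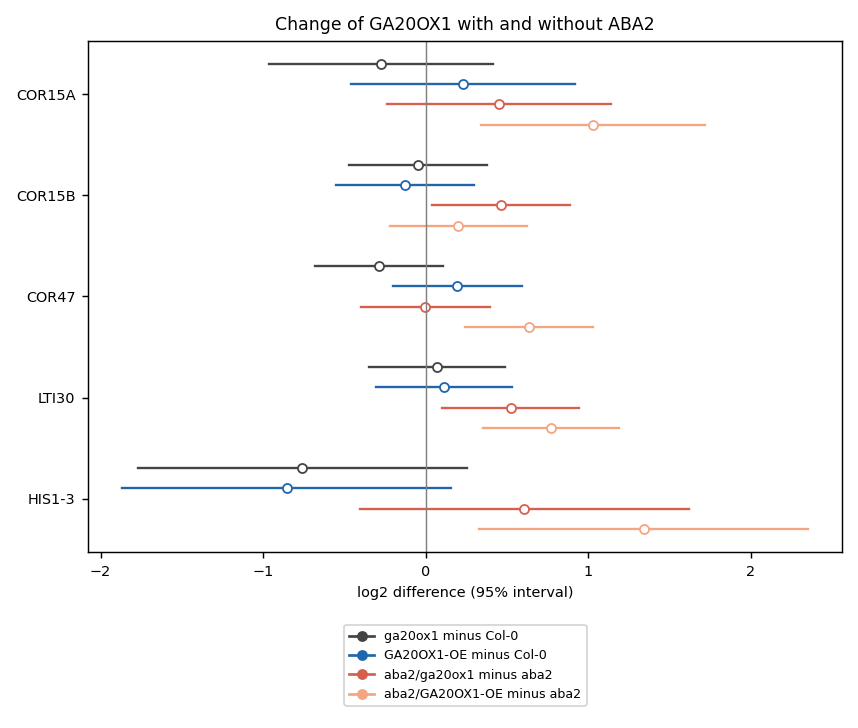
Log2 difference of each gene after loss or overexpression of GA20OX1, in plants with ABA2 (against Col-0) and without it (against aba2). Points are limma estimates and lines 95% intervals, and every point is open because none was called. In HIS1-3 the estimates are negative with ABA2 (-0.76 and -0.85) and positive without it (0.61 and 1.34, or 0.32 and 0.74 with the pseudocount), where the aba2 mean lies under the signal bound.

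Arrays of a genotype did not scatter alike for all 5 genes. Over the 21 arrays the log2 signals of the 10 gene pairs correlated at Pearson r from 0.806 to 0.939, which follows in large part from the genotype means they share. After each genotype's mean was taken out, COR15A and LTI30 correlated at 0.707, COR15A and COR15B at 0.643, and COR15A and COR47 at 0.278. The 4 pairs with HIS1-3 ran from 0.0435 with LTI30 to 0.521 with COR47. These are descriptions of 21 arrays that also share signal scaling.

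Some arrays stood high or low for several of the genes. In aba2/GA20OX1-OE replicate 2, COR15A lay 1.19 above its genotype mean and COR15B 0.48 above, but HIS1-3 only 0.08. The median signal of that array, 149, was the lowest of its genotype, against 164 and 188. In ga20ox1 replicate 1 and in GA20OX1-OE replicate 3, as in ABA2-OE replicate 3, 5 of 5 genes were at the lowest level of their genotype. The median signals of ga20ox1 replicate 1 (136) and ABA2-OE replicate 3 (130) were also the lowest of their genotypes, and that of GA20OX1-OE replicate 3 (167) was not. The share of all probe sets lowest on these arrays was not counted, so a shift of the whole array was not tested.

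**Figure D4:**
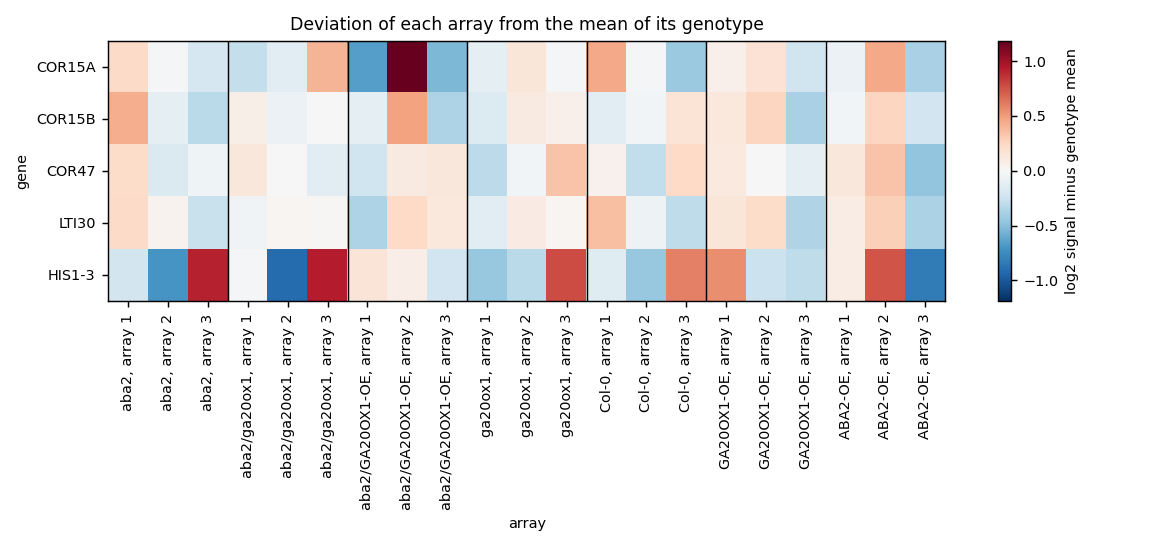
Log2 signal minus the mean of the genotype, for the 5 genes (rows) on the 21 arrays (columns, 3 a genotype, parted by lines). Red is above and blue below the mean. The darkest red field is COR15A on aba2/GA20OX1-OE replicate 2, 1.19 above its mean, and ABA2-OE replicate 3 is blue in all 5 rows.

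None of the 12 related genes that were listed and tested fell in aba2, in limma, where 2.51% of all tested probe sets were called lower. At that share a count of 0 among 12 does not set these genes apart. In the linker histone list, taken by locus, AT1G06760, AT2G30620 and HON4 differed by -0.13, -0.13 and -0.23 in aba2 against Col-0 and 0 of 3 were called. Of 16 listed dehydrin and late embryogenesis abundant (LEA) genes 3 were tested, and whether the list holds the whole family was not checked. The dehydrin gene AT1G54410, known as HIRD11, differed by -0.56 (SE 0.37, adjusted p = 0.52) and LEA26 (AT2G44060) by 0.13. LEA27 (AT2G46140), the other listed LEA gene that was tested, rose 1.62-fold (0.70, SE 0.18, adjusted p = 0.027), opposite to COR47 and LTI30. Its arrays read 6.96, 7.37 and 7.52 in Col-0 and 8.00, 7.95 and 7.99 in aba2, and did not overlap, a separation not counted over all tested probe sets. The call of LEA27 ended after quantile normalization (0.60, adjusted p = 0.072), with only the groups compared (0.095), and without Col-0 replicate 1 (0.53, 0.17) or aba2 replicate 1 (0.69, 0.077), 2 (0.71, 0.078) or 3 (0.69, 0.092). Averaged over the 3 GA backgrounds it rose by 0.84 (SE 0.11, adjusted p = 4.8e-06), a call kept under every alternative run.

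Of the other genes named for cold, drought or ABA, 5 of 25 were tested, COR27, DI19, DI21, RD2 and SRC2. All 5 were added after the annotation was read, as were LEA26, LEA27 and HON4. The annotation named none of the genes set beforehand in this list, RD29A, KIN1 and RD22 among them. Their probe sets, if the array holds any, could not be identified, so those genes were not analysed here. The 5 tested genes differed by -0.06 to 0.28 in aba2 and 0 of 5 were called. The zinc finger gene ZAT10 (0.70, SE 0.53), the only tested 1 of 17 listed transcription factors, was not called either. In all, 1 of these 12 related genes rose and 0 fell in aba2, with a median of 0.08, and 1 of the 12 had an unadjusted p under 0.05. In ABA2-OE against aba2 limma called 0 of 12, with 3 at an unadjusted p under 0.05. Of all 15922 tested probe sets 2192 were called there, and 4839 had an unadjusted p under 0.05. Of the 12, 4 were called with array weights, 2 with the replicate block and 1 without ABA2-OE replicate 3. Over the alternatives the calls among all probe sets ran from 949 to 4695. The annotation named 0 of 21 ABA receptor, phosphatase and kinase genes and 0 of 14 genes of ABA synthesis and breakdown, so these were not analysed here. A further 5 listed LEA and dehydrin genes had too low a signal to be tested. Among them LEA4-5 had a mean of 5.30 in Col-0 (4.88 to 5.83) and 1.14 in aba2 (0.74 to 1.57), with arrays that did not overlap, mostly below the signal bound. This difference was not tested.

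**Figure D5:**
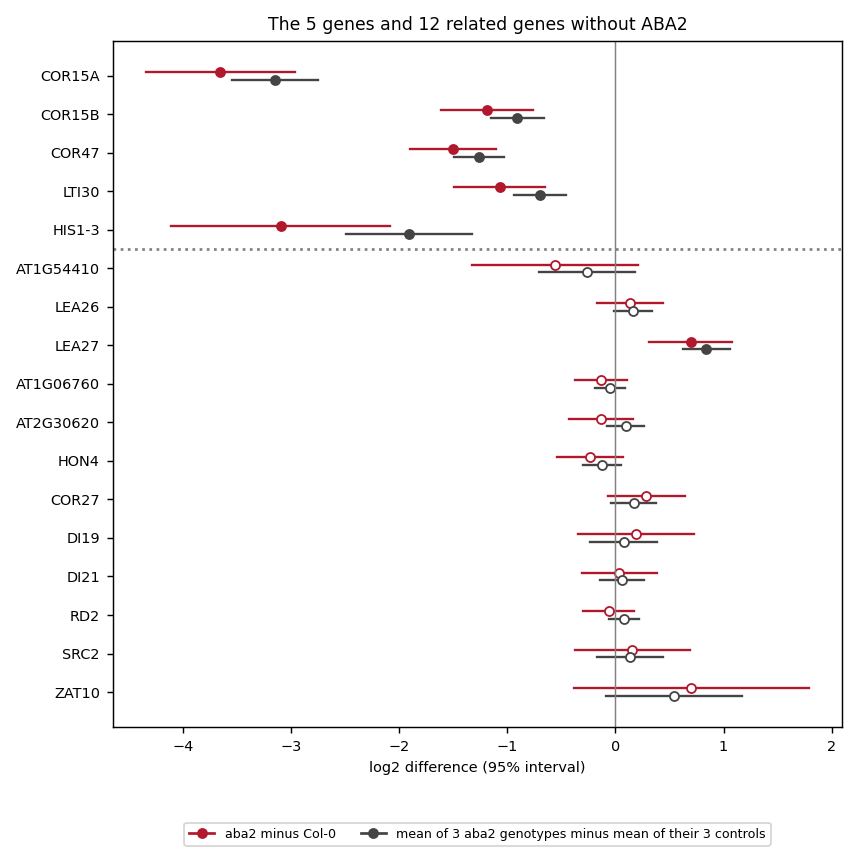
Log2 difference without ABA2 for the 5 genes (above the dotted line) and 12 related genes, as aba2 minus Col-0 and as the mean of the 3 genotypes with aba2 minus the mean of Col-0, ga20ox1 and GA20OX1-OE. Points are limma estimates, lines 95% intervals, and filled points were called. Of the related genes LEA27 alone is filled, and it lies to the right of 0.

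The genes whose signals were most like each of the 5 were ranked by Pearson r over the 21 arrays among 8755 probe sets of 1 gene, and the first 3 per gene are named. For COR15A they were AT1G51090 (r = 0.968), the sugar transporter gene SWEET4 (0.941) and the methionine sulfoxide reductase gene MSRB6 (0.938). AT1G51090 also came first for COR15B (0.931), before AT2G23120 (0.904) and AT2G20670 (0.902). For COR47 they were AT4G38690 (0.924), AT3G61260 (0.918) and AT2G44230 (0.915). AT4G38690 recurred for HIS1-3 (0.876), after AT1G07440 (0.890) and AT2G30930 (0.884). For LTI30 they were AT1G80130 (0.896), AT3G11420 (0.864) and the glycosyl hydrolase gene GH9B8 (0.849), the lowest r of those named. The best match, AT1G51090, had means of 7.36 in aba2, 9.68 in Col-0 and 9.92 in ABA2-OE. These 13 genes were picked for likeness on the same arrays, so their own differences support nothing further.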

How the data were processed

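The authors deposited MAS5 signals, a linear intensity per probe set, with MAS5 named in the submitters' processing notes. Neither its version nor a scaling target is given in the sources used here. With 2% of the values trimmed from each end, each array averaged 500.0 to 500.1, so the deposited intensity values had been scaled. Of 22810 probe sets 64 controls were left out. Signals were logged to base 2 without further normalization, and the 30% with the lowest mean log2 signal (under 5.257, a signal of 38.2) were not tested, which left 15922, 8760 of them with 1 gene. All 5 genes passed. No 2 arrays held identical values.

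Genes were named through the probe annotation given with the series, which lists 14016 probe sets, 13436 with 1 gene and 503 with several, and through a RefSeq gene table (TAIR10.1). Limma 3.58.1 (R 4.3.3, lmFit and eBayes with trend) fitted 7 genotype means over 21 arrays, and was tested on simulated data. Interactions are differences of differences. Alternatives were a pseudocount of 20.1 (the 20th percentile), quantile normalization, no or a 50% filter, no trend, array weights, the replicate number as a block, only the groups compared, and each array left out. One further setting, chosen after seeing the data, dropped a pair of arrays doubted in earlier work on these data, replicate 3 of aba2/GA20OX1-OE and replicate 2 of GA20OX1-OE. The members and lists were chosen with earlier results of these data known, and 10 list genes were added by name after the annotation was read. Named beside the 5 genes were the called list genes by the rule of the 2 largest each way and the 3 most like each; other list genes are named because few were tested. No sequences were used.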

Additional observations from a re-analysis of the deposited data

How the results depend on the processing

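Of 80 differences (5 genes in 16 comparisons), 29 were called and 25 of these kept direction and call under every alternative run; HIS1-3 was not testable under the 50% filter, having too low a mean signal. The other 4 called differences lost the call at least once and 0 changed sign. Of the differences not called, 9 were called under at least 1 alternative. The number of the 5 genes called changed by over 1.5 times as follows. In ABA2-OE against Col-0 it was 0, 1 with the replicate block, and 0 to 1 without each array. In aba2/ga20ox1 against ga20ox1 it was 3, 5 with array weights, 5 with the replicate block, and 2 to 4 without each array. In aba2/GA20OX1-OE against aba2 it was 0, 2 with array weights, 1 with the replicate block, and 0 to 1 without each array. In aba2/GA20OX1-OE against aba2/ga20ox1 it was 0, and 1 with quantile normalization or only the groups compared. In GA20OX1-OE against ga20ox1 it was 0, and 1 with array weights. Calls over all probe sets moved in these comparisons too. In the order given they were 36, 867, 121, 623 and 21, and reached at most 242, 3340, 387, 1153 and 2394 under an alternative. A gain in calls among the 5 genes is therefore not read as particular to them. The added setting, both doubted arrays left out, left COR15B uncalled under GA20OX1-OE (-0.55, adjusted p = 0.28) and HIS1-3 uncalled in aba2/GA20OX1-OE against Col-0 (-1.64, 0.11). The cause of these changes was not tested.

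Signs turned in 10 differences, none called. In ga20ox1 against Col-0 COR15B was 0.0541 with array weights and -0.11 to 0.0359 without each array, and LTI30 -0.0815 to 0.25. In GA20OX1-OE against Col-0 COR15B was 0.0034 with quantile normalization and -0.26 to 0.0678 without each array, and LTI30 -0.0389 to 0.29. In GA20OX1-OE against ga20ox1 COR15B was 0.0229 with quantile normalization and -0.21 to 0.12 without each array. There LTI30 was -0.0321 with array weights and HIS1-3 0.13, with both doubted arrays left out they were -0.064 and 0.0314, and without each array they ran from -0.064 to 0.22 and from -0.37 to 0.29. COR47 in aba2/ga20ox1 against aba2 was 0.0806 with array weights and -0.0851 to 0.11 without each array. Against aba2, COR15B in aba2/GA20OX1-OE was -0.0369 to 0.42, and against aba2/ga20ox1 COR15A was -0.0157 to 0.90.

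Same-numbered arrays deviated together in part, at r -0.25 to 0.49 over pairs of genotypes, with medians of 0.13, 0.04 and 0.17 for replicates 1, 2 and 3. Of 21 arrays 13 were best matched by their own number, and the count to be met without any pairing was not worked out. The labels state no pairing, so the block was kept as an alternative, and a batch shared by a replicate number was not tested. Counts over all probe sets moved more: 801 in aba2 ran from 491 to 1096, 36 in ABA2-OE from 3 to 242, 2192 in ABA2-OE against aba2 from 949 to 4695, 2 in ga20ox1 from 0 to 95, 3 in GA20OX1-OE from 0 to 8, and 21 between both GA lines from 4 to 2394. Of the genotypes with aba2, 1174 and 1373 against Col-0 ran from 657 to 1562 and 547 to 1846, 867 and 720 against the GA parents from 460 to 3340 and 321 to 1384, and 1 and 121 against aba2 from 0 to 6 and 43 to 387. The last pair gave 623 (309 to 1153), and the interactions 0 (0 to 23) and 6 (0 to 13). Low signal limits HIS1-3, whose aba2 arrays gave signals of 10.7 to 32.5.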
